A study of Mus musculus with 12 samples.

Results

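The cell cycle and DNA replication genes described here are a list of 60 genes that dividing cells need to commit to a new cycle, copy their DNA and separate the copies. A transcript cluster (the set of array probes that reads out 1 gene) was taken for each gene when the platform annotation gave that gene as its only symbol, and where several did, the cluster with the highest mean over the 12 arrays would have been used. Of the 60 genes, 57 were measured, each by 1 cluster, out of 65956 transcript clusters in all. The remaining 3 gave no value: the clusters of Ccnd1 and Mcm7 also carry microRNA symbols, and no cluster is annotated as Ccnb1. The measured genes fell into 11 of G1 and its control, 19 of S phase and 27 of mitosis.

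The arrays came from fetal mouse gonads at embryonic day 12.5 in 3 groups of 4 samples. Control XY gonads were testes with intact Amh and Inhbb, dKO XY gonads were testes of Amh-/-; Inhbb-/- embryos, and control XX gonads were ovaries with both genes intact. Embryos came from time-mated crosses of Amh+/-; Inhbb+/- parents, and per the study's methods the lines were kept on a C57BL/6 background and the mesonephros was removed. Both deletions are present in every cell of the embryo, so no cell type was targeted. The stage is that of the labels, although the study lists these data under E15.5 in its statement of availability. The group size found here is the one its methods name for the labelled stage. A figure legend of the study gives the same size for the later stage, so group size does not settle the stage. The study also reports no statistical difference in global expression between control XY and dKO XY at the labelled stage, using a fold threshold. Here, without a fold threshold, 9.8% of all clusters were called lower and 16.7% higher in dKO XY (limma, adjusted p under 0.05). With a 2-fold threshold as well, 12 of the 57 genes measured were still called lower. The study's report and these values thus differ with that threshold too. The stage itself was not tested. Per the study's methods the arrays of a genotype are biological replicates. The labels do not tie a sample to an animal, so p-values measure the spread between these samples. Since a whole gonad was measured, fewer cells of a type and less RNA per cell cannot be told apart.

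A cell enters the cycle when D and E cyclins with their kinases release E2F factors from the retinoblastoma protein, and E2F then switches on the genes for DNA synthesis. The genes for mitosis peak later, in G2 and M, and are repressed in resting cells by the DREAM complex, which reaches DNA at a short element called CHR, while inhibitors such as p21 and p27 hold the cyclin-dependent kinases in check. In the mouse fetal gonad, the supporting cells of the testis are known to proliferate as testis cords form, whereas their ovarian counterparts leave the cycle early. AMH and activin B (a dimer of the Inhbb product) are growth factors of the TGF-beta family that Sertoli cells secrete.

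The promoters of S phase and mitosis genes are known for different elements, so stretches from genes that the results turn on are shown. All were read from RefSeq promoter windows of 300 bases (250 before and 50 after the start site, build GRCm38.p6), which held 50 of the 60 genes. The motifs searched on both strands were the CHR (TTTGAA), the CCAAT box (CCAAT, or ATTGG when read from the other strand) and 4 spellings of an E2F site (TTTCCCGC, TTTCGCGC, TTTGCCGC and TTTGGCGC). Matches stand in capitals, and E2F spellings can overlap on opposite strands, as in Mcm6. The stretches end at or before the start site and lie at chr10:69352913-69353052 (Cdk1, minus strand), chr4:118437344-118437463 (Cdc20, minus), chr7:135716460-135716579 (Mki67, minus), chr3:135212443-135212562 (Cenpe, plus), chr1:128359706-128359835 (Mcm6, minus), chr11:98907991-98908110 (Cdc6, plus) and chr17:29090859-29090978 (Cdkn1a, plus).
Cdk1: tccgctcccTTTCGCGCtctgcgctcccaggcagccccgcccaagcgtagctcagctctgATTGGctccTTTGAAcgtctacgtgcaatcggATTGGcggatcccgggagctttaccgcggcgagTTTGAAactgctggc
Cdc20: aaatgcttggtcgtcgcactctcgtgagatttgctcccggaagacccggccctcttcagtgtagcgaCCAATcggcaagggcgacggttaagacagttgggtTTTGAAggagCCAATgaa
Mki67: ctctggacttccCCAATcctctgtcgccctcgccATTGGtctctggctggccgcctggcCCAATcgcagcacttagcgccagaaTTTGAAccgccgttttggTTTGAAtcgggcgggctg
Cenpe: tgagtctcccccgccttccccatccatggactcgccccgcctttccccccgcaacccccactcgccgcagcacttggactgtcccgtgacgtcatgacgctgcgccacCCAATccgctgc
Mcm6: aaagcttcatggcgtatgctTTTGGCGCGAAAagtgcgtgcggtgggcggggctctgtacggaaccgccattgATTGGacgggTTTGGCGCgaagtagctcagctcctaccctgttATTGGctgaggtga
Cdc6: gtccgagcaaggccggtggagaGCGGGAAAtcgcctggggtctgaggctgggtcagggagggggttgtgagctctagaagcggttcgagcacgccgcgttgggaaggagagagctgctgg
Cdkn1a: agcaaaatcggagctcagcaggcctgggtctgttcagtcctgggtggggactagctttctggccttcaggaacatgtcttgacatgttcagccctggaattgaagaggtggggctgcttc

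The CHR letters stood in the window of 16 of 24 mitosis genes (66.7%), 2 of 17 S phase genes (11.8%) and 1 of 9 G1 genes, against 20.2% of 27025 genes with a window. E2F letters showed the opposite distribution, in 7 of 17 S phase genes (41.2%) and in Cdk1 alone of the 24 mitosis genes, against 2.6% of all genes. CCAAT boxes were as frequent in mitosis (17 of 24) as in S phase promoters (12 of 17), against 41.1% of all. Cdk1, the kinase that starts mitosis, held all 3 motifs, and its stretch shows 2 CHR and 2 CCAAT matches. Cenpe had a CCAAT box and no CHR match, and the Cdkn1a windows matched none of the motifs. A match describes letters only, and binding was not measured.

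The targeted genes were read first as a check of the labels. Amh was at 11.33, 11.40, 13.38 and 10.56 (log2 intensity) in control XY and between 5.59 and 5.90 in dKO XY. Inhbb was at 7.10 to 8.02 in control XY and 6.69 to 6.99 in dKO XY, with no overlap for either gene. Inhbb was below the 95th percentile of the negative control probe sets on each of the 12 arrays. As 8.24% of all clusters also lay wholly lower in dKO XY, Inhbb adds little to the check. The arrays also differed in signal contrast, the mean log2 intensity of 1324 positive control probe sets minus that of 5222 negative control probe sets. It was 3.95, 4.18, 4.44 and 3.70 in control XY, 2.83, 3.83, 2.48 and 3.30 in dKO XY and 3.22, 3.55, 3.21 and 3.65 in control XX. The difference from control XY was -0.957 for dKO XY (two-sided exact permutation p = 0.0571) and -0.660 for control XX (p = 0.0286, the smallest that 4 against 4 arrays allow). Across all clusters the median log2 fold change was 0.17 for dKO XY and 0.12 for control XX against control XY, and among the 5134 brightest clusters, above the 95th percentile of the negative controls, it was -0.49 and -0.17. Of the 57 genes, 35 had a mean below that level of 10.28.

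Control XX gonads were compared with control XY gonads to ask how the cycling program differed between the normal ovary and testis. Mitosis genes were lower in control XX: 13 of 27 passed the test (adjusted p under 0.05 over all clusters), all of them lower, with a median log2 fold change of -1.05 over the 27. For 25 of the 27, every control XX array lay below every control XY array, the exceptions being Ccnb2 and Cenpf. Among S phase genes 2 of 19 passed, both lower (median -0.58), and among the 11 G1 genes E2f8 was lower and Cdkn1a higher (median -0.26). In all, 16 genes were lower and 1 was higher, where 1.34% of all clusters were called lower and 0.608% higher, and 2.73% of the brightest were lower. Groups did not overlap, with control XX lower, for 36 of the 57, against 5.76% of all clusters and 15.1% of the brightest.

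dKO XY gonads were compared with control XY gonads to ask what the loss of both factors did to the program. Here 38 of the 57 genes were lower and 1, Cdkn1a, was higher, where 9.8% of all clusters were called lower and 16.7% higher, and 28.1% of the brightest were lower. The 38 comprised 24 of 27 mitosis genes (median log2 fold change -0.96), 11 of 19 S phase genes (median -0.65) and 3 of 11 G1 genes (median -0.40). The adjusted threshold moves with the share of all clusters called, so these counts are not comparable with those in control XX. At an unadjusted p under 0.05 (limma), 27 mitosis, 17 S phase and 7 G1 genes were lower in dKO XY. In control XX 27, 15 and 3 were lower. The arrays overlapped more than in control XX: 14 genes had every dKO XY array below every control XY array, against 8.24% of all clusters and 17.7% of the brightest. These calls rested on single arrays. The limma fit called none of the 57 without control XY 3, dKO XY 1 or dKO XY 3, although 41 to 44 were lower and 1 higher there at an unadjusted p under 0.05, against 51 and 2 with all arrays. After quantile normalization Cdkn1a alone passed, where 2.74% of all clusters were called and 1.48% were lower, and 27 genes were lower and 1 higher at an unadjusted p under 0.05. There 7 genes lay wholly lower in dKO XY, against 8.89% of all clusters, and the median of the mitosis genes was -0.42.

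A direct comparison of dKO XY with control XX called none of the 57 genes (limma), where 0.126% of all clusters were lower and 0.0895% higher. At an unadjusted p under 0.05, 5 were lower and 1 higher in dKO XY, and this balance turned with the scaling: 2 were lower and 16 higher after quantile normalization, 2 and 24 with the signal contrast as a covariate, and 0 and 16 without dKO XY 1 and 3. After quantile normalization 10 of the 57, 7 of them mitosis genes, lay wholly higher in dKO XY, against 2.28% of all clusters. In the deposited values the median difference was 0.03, the groups overlapped for all 57 (2.23% of all clusters lay wholly lower and 1.92% wholly higher in dKO XY), and the half-widths of the 95% intervals ran from 0.23 to 0.73 log2 units, so differences smaller than that were not resolved. Both comparisons with control XY use the same 4 control XY arrays, so their values stand side by side below and are not independent.

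**Figure D1:**
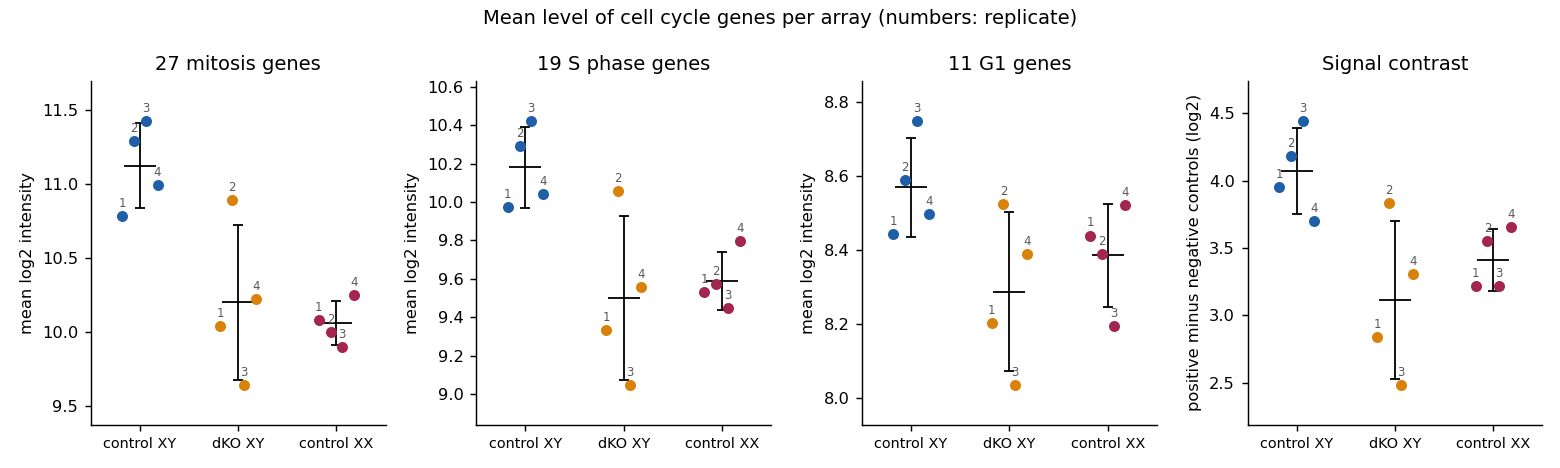
Mean log2 intensity of the 27 mitosis, 19 S phase and 11 G1 genes, and the signal contrast, in each of the 12 arrays (points, numbered by replicate; bars, mean ± SD, n = 4). Mitosis means were 10.79 to 11.43 in control XY, 9.64 to 10.89 in dKO XY and 9.90 to 10.25 in control XX, and dKO XY 2, with a signal contrast of 3.83, lay within the control XY range.

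Cdk1 with its cyclins drives entry into mitosis, and its level fell in both comparisons. Cdk1 was at 12.24, 12.67, 12.53 and 12.14 in control XY, 11.23, 12.20, 10.97 and 11.65 in dKO XY and 11.18, 11.08, 10.99 and 11.28 in control XX. All control XX arrays lay below all control XY arrays, and dKO XY 2 reached into the control range. The log2 fold change was -1.26 ± 0.22 (SE, adjusted p = 0.0124) in control XX and -0.88 ± 0.22 (adjusted p = 0.025) in dKO XY. Ccnb2, the B cyclin that could be measured, was at 11.59, 11.79, 12.35 and 11.91 in control XY and 10.29, 11.45, 10.09 and 10.54 in dKO XY, a change of -1.32 ± 0.34 (adjusted p = 0.0254) without overlap. In control XX it was at 10.49, 12.02, 10.97 and 10.86, so that control XX 2 lay within the control XY range and the call failed (-0.83, adjusted p = 0.194). Ccna2, the cyclin A of S phase and G2, fell by 0.89 in dKO XY (adjusted p = 0.0243) and was 0.87 below control XY in control XX, where it missed the threshold at 0.0686.

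Kinetochore genes included the largest fall of the list in both comparisons. Cenpe, the motor that carries chromosomes along spindle microtubules, was at 11.61, 12.18, 12.09 and 11.58 in control XY, 10.29, 11.34, 9.63 and 10.62 in dKO XY and 10.27, 10.11, 10.01 and 10.45 in control XX. Neither group overlapped control XY. The log2 fold change was -1.66 ± 0.29 (adjusted p = 0.0109) in control XX and -1.40 ± 0.29 (adjusted p = 0.0212) in dKO XY. Ndc80 and Nuf2, partners in the complex that grips microtubules, changed by -1.02 and -1.30 in control XX and by -0.96 and -1.03 in dKO XY, all past the test and without overlap. Cenpa, the histone that marks the centromere, and Cenpf, a kinetochore protein of G2 and M, fell by 0.70 and 1.04 in dKO XY, and their changes of -0.60 and -0.77 in control XX did not pass.

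**Figure D2:**
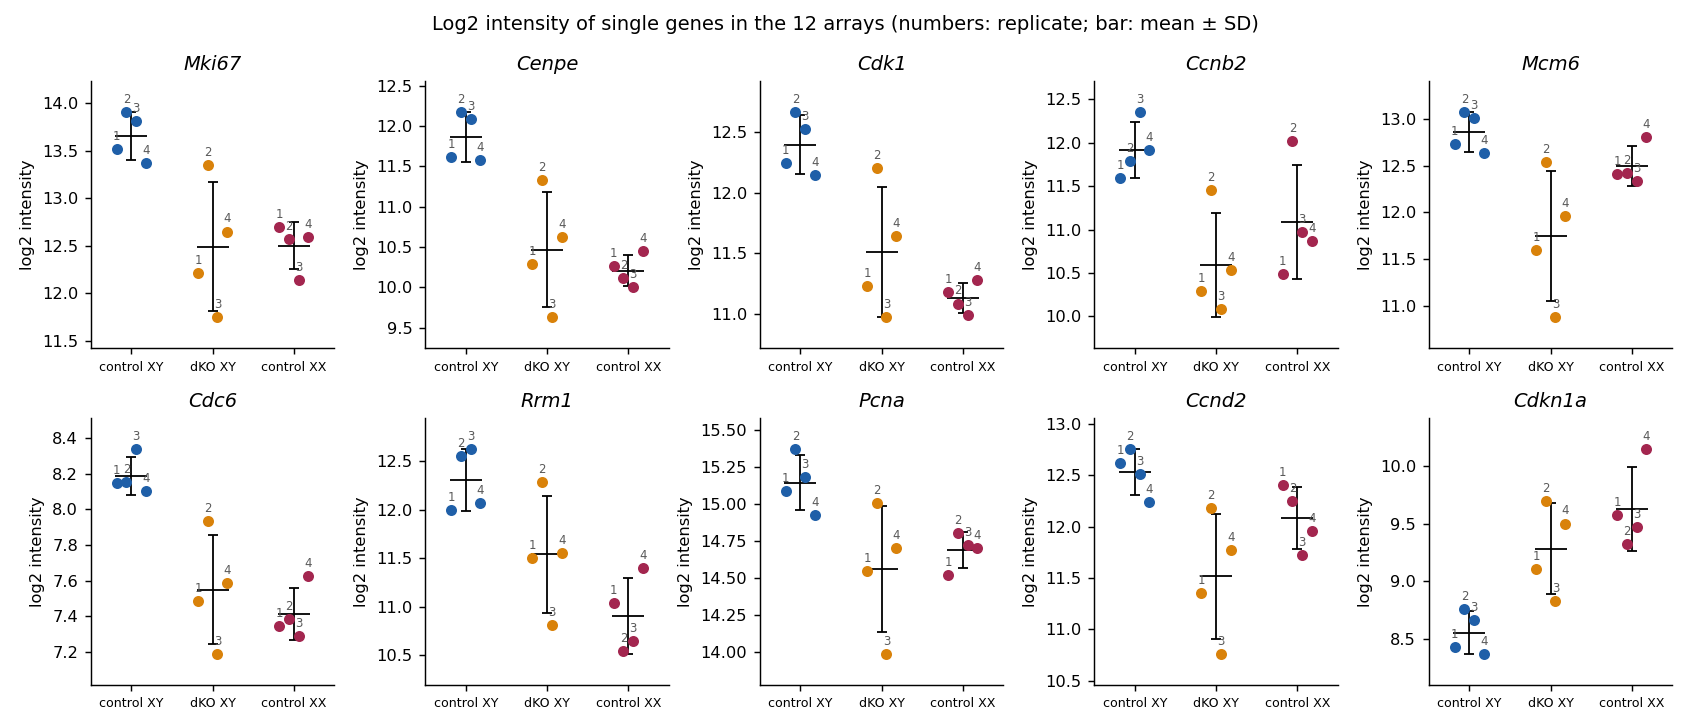
Log2 intensity of 10 genes in the 12 arrays (points, numbered by replicate; bars, mean ± SD, n = 4). The 4 control XX arrays of Cenpe sat between 10.01 and 10.45, below control XY at 11.58 to 12.18, and Cdkn1a was the only gene of the 10 that was higher in both groups than in control XY.

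The mitotic kinases and the spindle checkpoint, which delays anaphase until every chromosome is attached, fell in all 6 members in dKO XY. In control XX 4 fell, where 1.34% of all clusters were called lower, against 9.8% in dKO XY. All 6 lay wholly below control XY in control XX, and all 6 overlapped it in dKO XY. Of all clusters, 5.76% lay wholly lower in control XX and 8.24% in dKO XY. Aurka, the spindle pole kinase, and Aurkb, the kinase that corrects attachments, fell by 1.12 and 0.88 in control XX and by 0.77 and 0.56 in dKO XY. Plk1, a kinase active throughout mitosis, was at 9.36, 10.01, 10.11 and 9.32 in control XY, 8.62, 9.48, 8.33 and 8.98 in dKO XY and 8.52, 8.75, 8.10 and 8.64 in control XX. It fell by 1.20 in control XX (adjusted p = 0.0352) and by 0.84 in dKO XY (adjusted p = 0.0361), where dKO XY 2 overlapped control XY. The checkpoint gene Mad2l1 fell by 1.13 and 0.99 in control XX and dKO XY. Its partners Bub1 and Bub1b fell by 0.98 and 1.10 in dKO XY, and stood at -0.82 and -1.22 in control XX with adjusted p of 0.101 and 0.0566.

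Spindle genes were lower in control XX than in control XY without overlap for all 4 members, against 5.76% of all clusters. In dKO XY all 4 overlapped control XY. Tpx2, which nucleates spindle microtubules, was at 10.29, 11.01, 11.14 and 10.50 in control XY, 9.81, 10.75, 9.26 and 10.07 in dKO XY and 9.51, 9.32, 9.33 and 9.76 in control XX. Its change was -1.26 ± 0.28 (adjusted p = 0.04) in control XX and -0.77 (adjusted p = 0.0571) in dKO XY. Tacc3, a spindle stabilizer, fell by 1.22 in control XX and missed the test in dKO XY (-0.72, adjusted p = 0.0516). Kif11, the motor that separates the poles, and the bundling protein Nusap1 fell by 1.04 and 0.87 in dKO XY, while their -1.23 and -1.02 in control XX had adjusted p of 0.0534 and 0.0584.

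Of the genes for leaving mitosis, Cdc20 fell in both comparisons. Cdc20, the activator of the anaphase promoting complex, was at 9.64, 9.80, 10.33 and 9.62 in control XY, 8.56, 9.67, 8.32 and 8.72 in dKO XY and 8.66, 8.68, 8.43 and 8.94 in control XX. It fell by 1.17 ± 0.26 in control XX (adjusted p = 0.0399) and by 1.03 ± 0.26 in dKO XY (adjusted p = 0.0247). Its ubiquitin-conjugating partner Ube2c ranged from 14.82 to 15.81 in control XY, 14.13 to 15.49 in dKO XY and 13.61 to 14.61 in control XX and passed in neither comparison. Of the 5 genes of the central spindle and cytokinesis, all fell in dKO XY and 2 in control XX. Of all clusters, 9.8% and 1.34% were called lower in these comparisons. None of the 5 overlapped control XY in control XX, and all 5 did in dKO XY. Prc1, which bundles the central spindle, fell by 1.04 in control XX and 0.70 in dKO XY, and Birc5 (survivin, a subunit of the Aurkb complex) by 1.01 and 0.69. The kinesins Kif20a and Kif23 and the ring protein Anln fell by 1.00, 0.97 and 0.90 in dKO XY and stood at -1.05, -1.03 and -0.79 in control XX, with adjusted p of 0.0529, 0.0665 and 0.153.

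Mki67 and Top2a, both used as proliferation markers, missed the threshold in control XX although their arrays were separate from control XY. Mki67, which coats mitotic chromosomes, was at 13.52, 13.91, 13.82 and 13.38 in control XY, 12.21, 13.35, 11.75 and 12.65 in dKO XY and 12.70, 12.58, 12.14 and 12.59 in control XX. Its log2 fold change was -1.15 ± 0.28 in control XX (adjusted p = 0.0545) and -1.17 ± 0.28 in dKO XY (adjusted p = 0.023). Top2a, the topoisomerase that disentangles sister chromatids, was at 14.24 to 14.86 in control XY, 12.75 to 14.25 in dKO XY and 13.31 to 13.61 in control XX. It changed by -1.01 (adjusted p = 0.0636) and -0.996 (adjusted p = 0.0254). After quantile normalization Mki67 passed in control XX (-0.90, adjusted p = 0.0469) and not in dKO XY (-0.56, adjusted p = 0.0939).

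**Figure D3:**
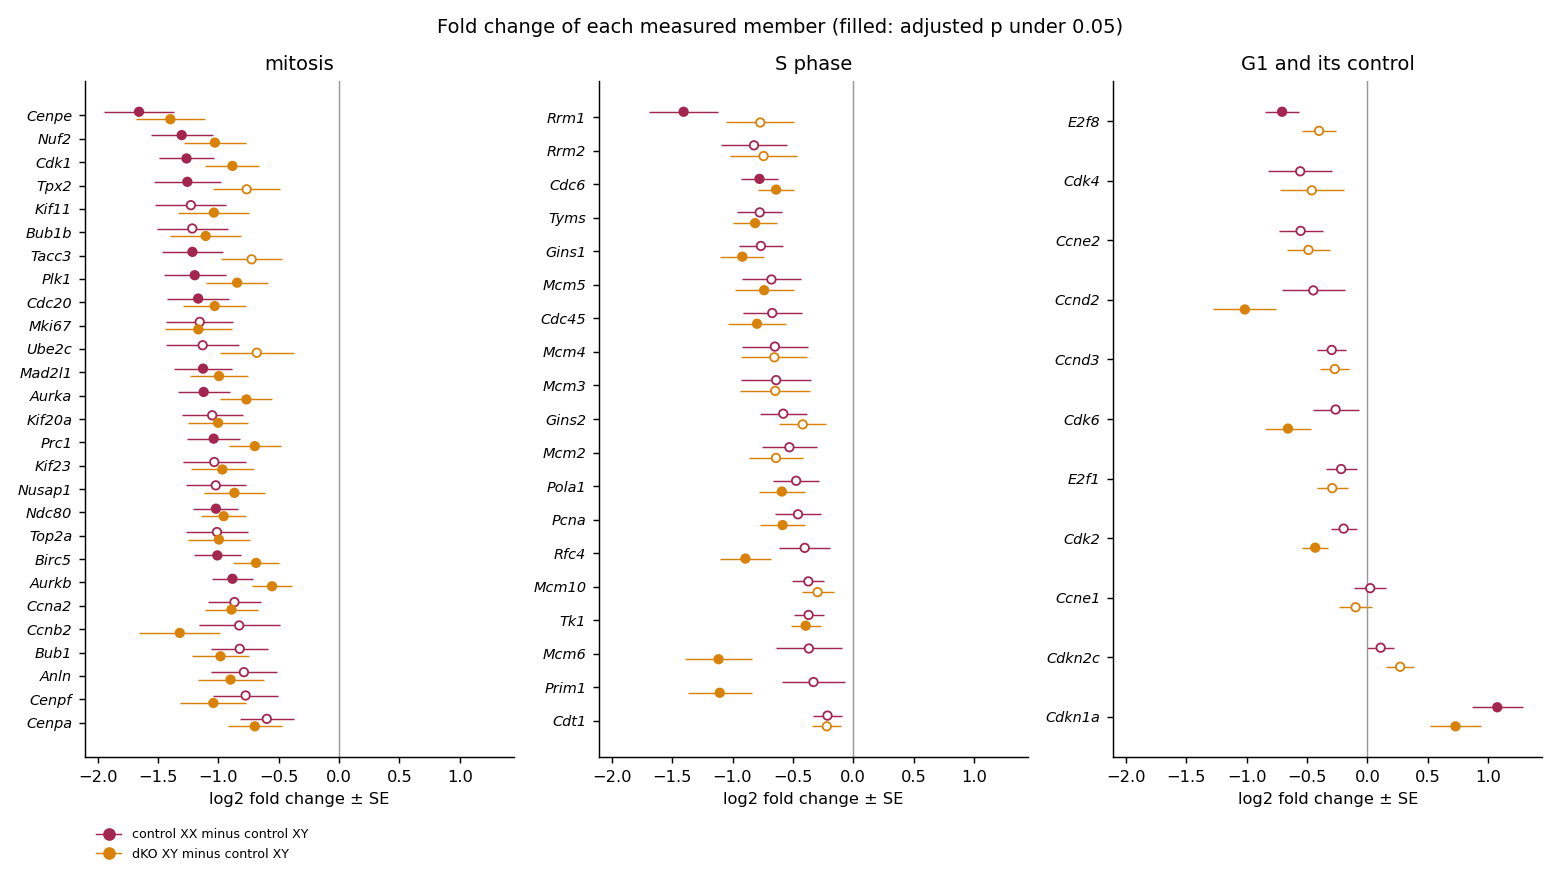
Log2 fold change ± SE of the 57 genes in control XX and in dKO XY, each against control XY, sorted within class by the change in control XX (filled points, adjusted p under 0.05). All 27 mitosis and all 19 S phase genes lay below 0 in both comparisons, and Cdkn1a lay farthest above 0.

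S phase genes moved less than mitosis genes in control XX. The helicase that opens replication forks is built of Mcm2 to Mcm7; none of its 5 measured subunits passed in control XX (-0.68 to -0.37) and Mcm5 and Mcm6 fell in dKO XY. Mcm6 was at 12.72, 13.07, 13.01 and 12.63 in control XY, 11.60, 12.54, 10.88 and 11.96 in dKO XY and 12.40, 12.42, 12.34 and 12.81 in control XX. All dKO XY arrays lay below control XY (-1.12 ± 0.27, adjusted p = 0.024), while control XX 4 was within the control XY range (-0.37, adjusted p = 0.412). The direct difference of -0.75 between dKO XY and control XX did not pass (adjusted p = 0.409). Mcm5 fell by 0.74 in dKO XY (adjusted p = 0.0438), and Mcm2, Mcm3 and Mcm4 stood at -0.65 to -0.64 there without passing.

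Among genes that license origins and start the helicase, Cdc6 fell in both comparisons. Cdc6, which loads the helicase at origins, was at 8.15, 8.15, 8.34 and 8.11 in control XY, 7.49, 7.93, 7.19 and 7.59 in dKO XY and 7.35, 7.38, 7.29 and 7.63 in control XX, with no overlap of either group with control XY. It fell by 0.78 ± 0.15 in control XX (adjusted p = 0.019) and by 0.64 ± 0.15 in dKO XY (adjusted p = 0.0227). Cdc6 and Gins1 were dim, below the 95th percentile of the negative controls on each of the 12 arrays, so the filter on dim clusters left both untested. Gins1, a subunit of the active helicase, fell by 0.92 in dKO XY (adjusted p = 0.0206) and was at -0.76 in control XX (adjusted p = 0.0522), separate from control XY in both. Cdc45, its partner, fell by 0.80 in dKO XY, whereas Gins2, Cdt1 and Mcm10 passed in neither comparison (-0.58 to -0.21).

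All 4 polymerase, primase, clamp and clamp loader genes passed the test in dKO XY (-1.11 to -0.59). None passed in control XX, where all 4 also lay below 0 (-0.47 to -0.33). Of all clusters, 9.8% were called lower in dKO XY and 1.34% in control XX, so these counts are not comparable. After quantile normalization none of the 4 passed in dKO XY by limma (-0.57 to -0.15, adjusted p 0.0974 to 0.524). The direct comparison of dKO XY with control XX called none of the 4. Prim1, the catalytic primase subunit, was at 10.60, 11.06, 11.10 and 10.87 in control XY, 9.43, 10.64, 9.23 and 9.91 in dKO XY and 10.26, 10.92, 10.68 and 10.45 in control XX. It fell by 1.11 ± 0.26 in dKO XY (adjusted p = 0.0229), with dKO XY 2 just inside the control range. Pcna, the sliding clamp, was at 14.93 to 15.38 in control XY, 13.98 to 15.01 in dKO XY and 14.52 to 14.81 in control XX. It fell by 0.59 in dKO XY (adjusted p = 0.0403) and was 0.46 below control XY in control XX without overlap (adjusted p = 0.195). Pola1, the polymerase that extends primers, and Rfc4, of the clamp loader, fell by 0.59 and 0.89 in dKO XY and were at -0.47 and -0.40 in control XX.

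Genes that supply nucleotides were the S phase group furthest from control XY in control XX. None of the 4 overlapped there, where 5.76% of all clusters lay wholly lower. Rrm1, the large subunit of ribonucleotide reductase, was at 11.999, 12.55, 12.62 and 12.07 in control XY, 11.51, 12.28, 10.81 and 11.56 in dKO XY and 11.04, 10.54, 10.65 and 11.40 in control XX. It fell by 1.41 ± 0.28 in control XX (adjusted p = 0.025), the largest S phase change there, and stood at -0.77 in dKO XY (adjusted p = 0.0588). Rrm2, the small subunit, was at -0.82 and -0.74 and passed in neither. Tyms, which makes thymidylate, and Tk1, which salvages thymidine, fell by 0.81 and 0.39 in dKO XY. In control XX they were at -0.77 (adjusted p = 0.0527) and -0.37 (adjusted p = 0.144).

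Within each array, the mean of the S phase genes was taken from that of the mitosis genes. This value holds the offset between the 2 sets of probes, so only its differences between arrays were compared. It was 0.81, 1.00, 1.01 and 0.95 in control XY, 0.71, 0.84, 0.59 and 0.66 in dKO XY and 0.55, 0.43, 0.45 and 0.45 in control XX. All control XX arrays lay below all 8 XY arrays, and dKO XY lay between with 1 array inside the control XY range. After quantile normalization the ranges were 0.79 to 0.94, 0.70 to 0.81 and 0.41 to 0.57. This is a description of the listed genes, and no test was made on it. Mitosis genes were the brighter set (control XY means of 11.12 and 10.18), and the part of signal contrast in the differences was not tested. Within dKO XY the value was lowest in array 3 (signal contrast 2.48) and highest in array 2 (3.83). Arrays 1 (2.83) and 4 (3.30) stood in the reverse order.

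**Figure D4:**
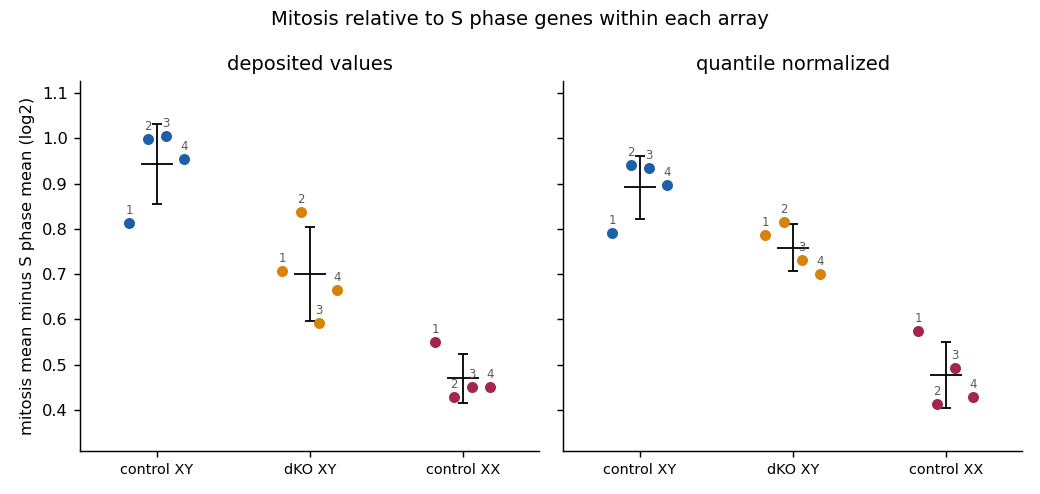
Mean log2 intensity of the 27 mitosis genes minus that of the 19 S phase genes in each array, from the deposited values and after quantile normalization (points, numbered by replicate; bars, mean ± SD, n = 4). Control XX (0.43 to 0.55) lay below control XY (0.81 to 1.01) and dKO XY (0.59 to 0.84) in the deposited values, and stayed below both after normalization.

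Genes of G1 had the smallest median changes, and an inhibitor among them rose. Cdkn1a encodes p21, which binds and blocks cyclin-dependent kinases, and was at 8.43, 8.76, 8.66 and 8.37 in control XY, 9.11, 9.70, 8.83 and 9.50 in dKO XY and 9.57, 9.33, 9.47 and 10.15 in control XX. It was dim, below the 95th percentile of the negative controls on each of the 12 arrays, so the filter on dim clusters left it untested and its changes are those of signal near the background. All arrays of both groups lay above all control XY arrays, as did 7.98% of all clusters in control XX and 16.2% in dKO XY. It rose by 1.08 ± 0.21 in control XX (adjusted p = 0.0222) and by 0.73 ± 0.21 in dKO XY (adjusted p = 0.0322). After quantile normalization the changes were 1.28 (adjusted p = 0.00187) and 1.11 (adjusted p = 0.0195), and with the signal contrast as a covariate 1.4998 (adjusted p = 0.00283) and 1.34 (adjusted p = 0.396). The call in control XX was lost without control XY 3, control XY 4 or control XX 1, at an adjusted p of up to 0.0651, and that in dKO XY without control XY 2, 3 or 4 or dKO XY 1, 3 or 4, at up to 0.0816. Cdkn2c, the p18 inhibitor of Cdk4 and Cdk6, was at 5.01 to 5.17 in control XY, 5.11 to 5.49 in dKO XY and 5.09 to 5.34 in control XX and passed in neither comparison.

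The D cyclins carry growth factor signals to Cdk4 and Cdk6. Ccnd2 was at 12.62, 12.76, 12.51 and 12.24 in control XY, 11.36, 12.19, 10.76 and 11.77 in dKO XY and 12.41, 12.25, 11.72 and 11.96 in control XX. It fell by 1.02 ± 0.26 in dKO XY without overlap (adjusted p = 0.0256) and stood at -0.45 in control XX (adjusted p = 0.311); the direct difference of -0.57 did not pass (adjusted p = 0.482). Cdk6 likewise fell by 0.66 in dKO XY (adjusted p = 0.0317) and was at -0.26 in control XX. Ccnd3 (7.37 to 7.77 in control XY, 7.17 to 7.43 in dKO XY and 7.08 to 7.46 in control XX) and Cdk4 passed in neither.

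At the next step, Cdk2, the partner of the E cyclins, fell by 0.43 in dKO XY (adjusted p = 0.0244, no overlap) and was at -0.20 in control XX. Ccne1 and Ccne2 passed in neither comparison, with Ccne2 at -0.55 in control XX, where its arrays were separate. E2f8, a repressor of the E2F family that is itself an E2F target, was at 7.78, 8.19, 8.47 and 8.09 in control XY, 7.67, 7.88, 7.55 and 7.83 in dKO XY and 7.40, 7.38, 7.34 and 7.58 in control XX. It fell by 0.71 in control XX (adjusted p = 0.0263) and was at -0.40 in dKO XY (adjusted p = 0.0552). E2f8 was dim as well, below the 95th percentile of the negative controls on each of the 12 arrays, and untested under the filter on dim clusters. E2f1, an activator, was at 6.58 to 7.06, 6.44 to 6.52 and 6.45 to 6.81 in the 3 groups, and its change of -0.29 in dKO XY missed the test (adjusted p = 0.0987) although the arrays were separate.

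The pathway was widened with 118 further cell cycle genes, of which 114 were measured. Of all clusters, 1.34% were called lower in control XX and 9.8% in dKO XY, so counts of the 2 comparisons are not comparable. Every array lay below every control XY array for 40 of 54 other mitosis genes in control XX and 18 in dKO XY. The shares of all clusters were 5.76% and 8.24%. Of these 54 mitosis genes, 20 were lower in control XX (median -0.75) and 41 in dKO XY (median -0.77), and none was higher. The leading ones in control XX were Fam83d (-1.58), a spindle protein, Cdc25c (-1.56), a phosphatase that activates Cdk1, and Hmmr (-1.49), a spindle assembly factor. In dKO XY they were Hmmr (-1.33), the spindle pole gene Aspm (-1.19) and Depdc1a (-1.15). Of 39 other S phase genes, 1 was lower in control XX (Pole2, a subunit of the leading strand polymerase, -0.99) and 20 in dKO XY, led by Pole2 (-1.07), Gins4 (-1.06) and Rfc1 (-0.99). After quantile normalization 14 of the other mitosis genes were lower in control XX (1.14% of all clusters) and 4 in dKO XY (1.48%), and of the other S phase genes 1 was lower in dKO XY and 1 higher in control XX.

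Among 21 other genes of G1 control, the other members of the p21 family were higher in control XX. Cdkn1b, which encodes p27, was at 7.68, 7.99, 7.90 and 7.35 in control XY, 7.07, 7.95, 6.62 and 7.58 in dKO XY and 9.14, 9.85, 8.88 and 10.63 in control XX. It rose by 1.89 ± 0.36 in control XX (adjusted p = 0.0186), stood at -0.43 in dKO XY (adjusted p = 0.356), and was the single gene of the 114 that differed between dKO XY and control XX (-2.32, adjusted p = 0.0221). The rise in control XX lost its call without control XY 3, control XY 4 or control XX 2 (adjusted p up to 0.0705), and the direct difference without dKO XY 1, 3 or 4 or control XX 2 (up to 0.131). Cdkn1c, which encodes p57, was at 8.99, 9.08, 8.58 and 8.77 in control XY, 9.34, 9.55, 9.17 and 9.61 in dKO XY and 10.24, 9.82, 9.84 and 9.93 in control XX. Both were dim, with Cdkn1b above the 95th percentile of the negative controls on 1 of the 12 arrays and Cdkn1c on none. The 3 groups of Cdkn1c did not overlap, and it rose by 1.10 ± 0.15 in control XX (adjusted p = 0.00235) and by 0.56 ± 0.15 in dKO XY (adjusted p = 0.0272). In control XX it passed without any single array. In dKO XY its call was lost without control XY 3 or 4 or dKO XY 1, 3 or 4 (up to 0.0846). Rb1, the retinoblastoma protein, and E2f3 fell by 0.91 and 1.03 in control XX and by 1.14 and 0.87 in dKO XY, and neither passed in either comparison after quantile normalization.

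**Figure D5:**
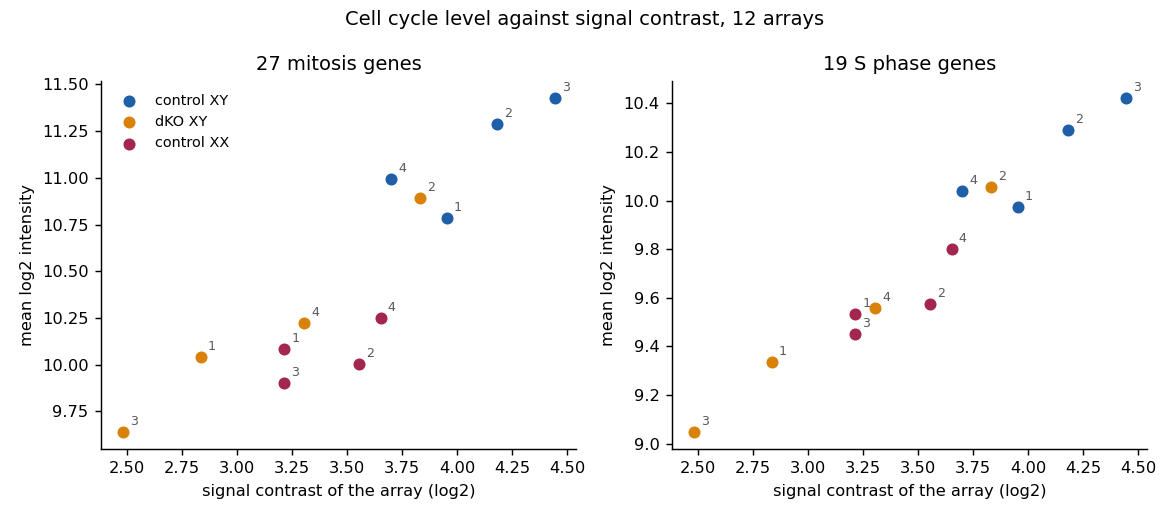
Mean log2 intensity of the 27 mitosis and the 19 S phase genes against the signal contrast of each array (12 points, numbered by replicate, coloured by group). Within dKO XY the order of the mitosis means (9.64, 10.04, 10.22 and 10.89) was that of the signal contrast (2.48, 2.83, 3.30 and 3.83). Between the control groups, the closest contrasts were those of control XX 4 (3.65, 10.25) and control XY 4 (3.70, 10.99). The array dKO XY 2 (3.83, 10.89) lay near control XY 4. These are single arrays, and the part of signal contrast was not tested. The contrast of every control XX array (3.21 to 3.65) was below that of every control XY array (3.70 to 4.44), so group and contrast were not separated.

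Signal contrast moved with the result in dKO XY. Its order over the 4 dKO XY arrays was that of the mitosis means and of the S phase means (9.05, 9.33, 9.56 and 10.06). With the contrast as a covariate none of the 57 genes passed in dKO XY by limma (median -0.12; 2 lower and 1 higher at an unadjusted p under 0.05), as was true of all 65956 clusters. In control XX, Cdk1 (-0.74, adjusted p = 0.0413), Cenpe (-0.97, adjusted p = 0.0262) and Cdkn1a still passed, and the median of the mitosis genes was -0.58 and of the S phase genes -0.14. After quantile normalization 18 genes passed in control XX, where 1.63% of all clusters were called, and 14 of them were mitosis genes, with 24 of 27 free of overlap, against 6.16% of all clusters. Cdk1 and Cenpe were the genes called in control XX whichever of the 12 arrays was left out, with adjusted p up to 0.0499 and 0.0459. Without 6 of the control arrays fewer genes passed there: without control XY 3, control XY 2, control XX 3, control XX 2, control XX 1 and control XY 4 the numbers of genes passing were 2, 3, 3, 4, 8 and 9. They rose to 29 and 28 without dKO XY 2 and dKO XY 3, arrays that enter this comparison through the shared spread alone. In dKO XY the count was 3 without control XY 2, 16 without control XY 4 and 25 without dKO XY 4.

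Marker genes of the cell types in a gonad moved with the groups too, and their part in the cell cycle values was not tested. Over all clusters, 9.8% were called lower and 16.7% higher in dKO XY, and 1.34% and 0.608% in control XX. The macrophage and mesonephros markers were dim on every array, so their calls are those of signal near the background. The same holds for the called Sertoli markers Dhh, Aard and Mro and the pre-granulosa markers Wnt4, Runx1, Irx3, Rspo1 and Bmp2. It also holds for Kdr, Tek and Cldn5 (endothelial), Wnt5a (interstitial) and Alas2 (erythroid). Cyp17a1 and Hsd3b1 (Leydig) and Acta2 (interstitial) were above the 95th percentile of the negative controls on 1 of the 12 arrays each. Of 8 Sertoli cell markers, 8 were lower in control XX and 5 in dKO XY, with array means of 11.07 to 12.03 in control XY, 9.39 to 10.19 in dKO XY and 6.92 to 7.19 in control XX. Sox9, which directs Sertoli cell fate, was at 10.04 to 10.68 in control XY and 9.94 to 10.85 in dKO XY. Interstitial markers (5 of 8 measured) were lower for 4 in control XX and 5 in dKO XY, at 10.46 to 11.50 in control XY, 8.34 to 9.55 in dKO XY and 8.41 to 8.99 in control XX. Germ cell markers passed for 0 of 8 in each limma comparison (at an unadjusted p under 0.05, 1 was higher in control XX, 0 differed in dKO XY, and 4 were lower in dKO XY than in control XX), at 8.03 to 9.44, 7.99 to 8.73 and 8.90 to 9.33. Pre-granulosa markers were higher for 6 of 8 in control XX and 1 in dKO XY (6.39 to 6.47, 6.58 to 6.78 and 7.44 to 8.09), with Fst at 10.02 to 11.80 in control XX and Foxl2 no higher than 5.24 there. Lower were also 1 of 4 Leydig cell markers in control XX and 2 in dKO XY (7.82 to 9.73, 6.70 to 7.19 and 6.49 to 7.67). Of 8 endothelial markers, 4 passed as lower in dKO XY and 0 in control XX (8.16 to 8.64, 7.44 to 8.10 and 7.50 to 7.99). At an unadjusted p under 0.05 (limma), 6 of the 8 were lower in dKO XY and 5 in control XX, with median log2 fold changes of -0.53 and -0.43. Macrophage (2 of 6 higher in dKO XY; 6.30 to 6.54, 6.56 to 6.90 and 6.61 to 6.83), erythroid (1 of 4 lower in dKO XY; 10.19 to 10.33, 9.97 to 10.25 and 10.06 to 10.31) and mesonephros markers (2 of 5 higher in dKO XY; 5.54 to 5.70, 5.82 to 5.96 and 5.74 to 5.89) passed for none in control XX.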

How the data were processed

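Total RNA of 12 gonad samples was amplified, labelled with biotin and measured on Clariom D mouse arrays (Affymetrix). The authors deposited log2 intensities of 72688 probe sets, and per the study's methods used RMA, while the exact steps behind the deposited table are not given in the sources used here. Values (2.79 to 19.93) were used as deposited. Array number limits the precision. Gene names came from the platform annotation (30638 clusters with 1 symbol, 2176 with several, 33142 with none). Groups followed the sample labels.

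A model with a mean for each of the 3 groups was fitted to the 12 arrays (limma 3.58.1, R 4.3.3, moderated by eBayes), with each pair of groups as a contrast and Benjamini-Hochberg adjustment over 65956 clusters. A gene was called at an adjusted p under 0.05. The code was tested on simulated data. Signal contrast was compared by a two-sided exact permutation test. Figures were drawn with matplotlib 3.10.9 in Python 3.11.15. Members and lists were chosen with earlier results of these data known. Values in every array were given for a fixed set (Mki67, Top2a, Pcna, the D cyclins, Cdkn1a, Cdkn2c, E2f1 and E2f8, by range for some) and for the largest change within each of 15 roles, and other members and the genes singled out beyond this, such as Cdkn1b and Cdkn1c, were described after their values were seen. Other settings were quantile normalization, signal contrast as a covariate, a replicate block, a filter on dim clusters, the 8 arrays compared, the mean over clusters of a symbol, leaving out dKO XY 1 and 3, and leaving out each array.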

Additional observations from a re-analysis of the deposited data

Results flagged for a closer look

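Tyms, thymidylate synthase, had 1 array far from the other 3 of its group in both control groups. In control XY, array 1 read 10.97 while the others read 11.32 to 11.38, and in control XX, array 3 read 10.20 while the others read 10.55 to 10.62. Dixon's test was run on 114 sets of 4 arrays (38 genes or array values in 3 groups), and chance alone flags about 1 in 20 of such sets.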

How the results depend on the processing

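No gene of the 57 passed between dKO XY and control XX under any setting run, but the split at an unadjusted p under 0.05 (5 lower and 1 higher in dKO XY) went to 2 and 16 after quantile normalization, 2 and 24 with the covariate and 0 and 16 without dKO XY 1 and 3. In dKO XY against control XY, where 39 genes (11 S phase, 24 mitosis) passed, quantile normalization left 1 (0 and 0), the signal contrast as a covariate 0 (0 and 0), the filter on dim clusters 15 of the 22 genes it kept (4 and 10), the 8 arrays compared 24 (6 and 14), and leaving out dKO XY 1 and 3 together 0 (0 and 0). Leaving out 1 array gave 0 to 52 genes, 0 to 17 of S phase and 0 to 27 of mitosis, as the share of all clusters called ran from 0.118% (without dKO XY 1) to 42.6% (without dKO XY 2). In control XX against control XY, where 17 genes (2 and 13) passed, the covariate left 3 (0 and 2), the dim filter 3 (1 and 2), the 8 arrays compared 28 (4 and 22) and the fit without dKO XY 1 and 3 also 28 (4 and 22). Leaving out 1 array gave 2 to 29 genes, 0 to 4 of S phase and 2 to 23 of mitosis, and 0.863% (without control XY 3) to 2.76% (without dKO XY 2) of all clusters. No pairing by replicate number was seen (r of deviations -0.57 to 0.27 over 12 same-number pairs, 6 above 0.1, and 0 arrays closest to their own number). The labels do not say whether samples were paired, and these values cannot show that they were not. With the replicate block, 35 genes passed in dKO XY and 8 (1 of S phase and 6 of mitosis) in control XX. Plk1 turned from -0.84 to 0.046 in dKO XY with the covariate (adjusted p = 0.998). Of 626 single-gene values under alternatives in each comparison, 198 lost and 13 gained the call in dKO XY, and 74 lost and 35 gained it in control XX. The cause was not tested, except that the 8-array fits and those without an array have fewer samples and the dim filter fewer genes.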
